A study of Homo sapiens with 21 samples.

Results

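The nuclear genes of oxidative phosphorylation were followed in RNA-seq of subcutaneous tumors grown from A549-Luc2, a luciferase-tagged line of human lung adenocarcinoma cells, in female athymic nu/nu mice aged 6 to 8 weeks at injection. Mice of the 3 groups, 10 in each, received the vehicle of DMSO, ethanol, PEG400 and corn oil (Control), Oxy186 or Oxy210, both at 50 mg/kg by daily oral gavage, and 7 tumors of each group were sequenced. Oxy186 and Oxy210 are semisynthetic oxysterols, the vehicle was common to all 3 groups, and the genes were taken by their symbols (NDUF, SDH, UQCR, CYC1, COX and ATP5 subunits), with no measured value in the rule. Injected cells were mixed with Matrigel, a single cell line was used, and the host lacks T cells of thymic origin. The chosen genes comprised 76 of the 60651 genes counted, of which 36 encode subunits of complex I, 4 of complex II, 9 of complex III, 12 of complex IV with NDUFA4 and its paralog NDUFA4L2 placed there, and 15 of ATP synthase.

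Oxidative phosphorylation takes place in the inner membrane of mitochondria. Complexes I and II take electrons from NADH and succinate and pass them through ubiquinone, complex III and cytochrome c to oxygen at complex IV. Protons pumped by complexes I, III and IV drive ATP synthase, in which a rotating c-ring turns the central stalk inside the catalytic F1 head. Most subunits are encoded in the nucleus and imported, whereas a small core of every complex except complex II is encoded by mitochondrial DNA, and the transcription factors NRF1, GABP of the ETS family and YY1 are known regulators of many of the nuclear genes.

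The libraries held between 13787493 and 17865119 counts on human genes, and the 76 genes took 0.584 to 0.985% of them. All 76 passed the low-count filter in every comparison, with 4 counts as the lowest value of any gene in any tumor. The 7 epithelial genes used as markers of A549 cells summed to medians of 19981, 23119 and 18542 CPM (counts scaled to library size) in Control, Oxy186 and Oxy210, and each was present in all groups. The 5 human fibroblast genes summed to at most 74.3 CPM, the 4 immune genes to at most 23.2 CPM, and the 4 endothelial, 5 skeletal muscle and 3 adipocyte genes to at most 5.88, 2.15 and 1.51 CPM, with 1 or 2 muscle genes and 1 adipocyte gene at 0 in every tumor of a group. Mouse cells of the host remained in the tumors, but only reads aligned to the human genome were counted. In bulk tumors fewer cells of a type and less RNA per cell cannot be told apart, and p-values measure the spread between these tumors. No 2 libraries of a group were alike within sampling noise: the closest pair, Oxy210 r2 and r3, had a chi-square per degree of freedom of 12.1. Control r4 and Oxy186 r3 stood apart from the other libraries in the 76 genes, as described below, and counts were therefore also taken without them.

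Promoters of the 76 genes were searched for the sequences that these factors are known to bind. RefSeq promoter windows of 300 bases, from 250 before to 50 after the start, were matched for 61 of the 76 genes on GRCh38.p14. The NRF1 core CGCANGCG was found on either strand in 23 of them (37.7%), against 12.0% of all 27305 genes with a promoter window and 20.6% of the 11541 such genes that passed the low-count filter. A gene counted as matched if any of its windows matched, and the number of windows per gene was not taken into account. CCGGAAG, an ETS site, was found in 20 (32.8% against 12.2% and 20.8%), and AAGATGGC, a YY1 site, in 12 (19.7% against 3.5% and 6.1%). At least 1 of these 3 was found in 42 (68.9% against 23.7% and 39.8%). The SP1 box GGGCGGG was found in 20 (32.8% against 36.7% and 58.8%), and CCAAT, the core of the NF-Y site, also in 20 (32.8% against 39.7% and 42.7%). The letters of these 5 motifs can overlap only at their ends, and a match is a description of the sequence and not evidence of binding.

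The promoters of the 4 genes with the largest log2 differences between Oxy186 and Oxy210 that are given in full later, and of NDUFS1, which showed almost none, are printed 5′ to 3′ on the strand of the gene, with NRF1, ETS and YY1 matches in capitals. They lie at chr4:674227-674526 on the minus strand (ATP5ME), chr21:33915755-33916054 minus (ATP5PO), chr5:1801157-1801456 plus (NDUFS6), chr6:75243752-75244051 minus (COX7A2) and chr2:206159395-206159694 minus (NDUFS1) of GRCh38.p14.
ATP5ME: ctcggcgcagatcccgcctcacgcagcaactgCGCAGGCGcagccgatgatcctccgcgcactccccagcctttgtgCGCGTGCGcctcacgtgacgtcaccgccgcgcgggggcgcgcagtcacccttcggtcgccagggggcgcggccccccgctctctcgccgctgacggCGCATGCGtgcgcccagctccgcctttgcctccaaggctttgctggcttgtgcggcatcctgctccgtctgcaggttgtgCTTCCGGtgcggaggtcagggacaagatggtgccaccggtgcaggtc
ATP5PO: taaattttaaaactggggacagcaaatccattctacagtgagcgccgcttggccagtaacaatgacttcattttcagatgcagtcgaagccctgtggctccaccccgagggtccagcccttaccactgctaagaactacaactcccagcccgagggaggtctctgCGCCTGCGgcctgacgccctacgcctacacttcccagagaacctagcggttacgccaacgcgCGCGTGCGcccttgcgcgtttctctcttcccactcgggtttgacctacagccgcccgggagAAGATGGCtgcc
NDUFS6: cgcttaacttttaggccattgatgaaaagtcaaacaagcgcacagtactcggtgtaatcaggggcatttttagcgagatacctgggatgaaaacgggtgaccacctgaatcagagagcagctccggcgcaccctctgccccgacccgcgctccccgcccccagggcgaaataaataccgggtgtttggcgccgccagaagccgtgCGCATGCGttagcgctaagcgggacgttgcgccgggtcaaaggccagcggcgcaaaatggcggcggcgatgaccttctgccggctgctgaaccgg
COX7A2: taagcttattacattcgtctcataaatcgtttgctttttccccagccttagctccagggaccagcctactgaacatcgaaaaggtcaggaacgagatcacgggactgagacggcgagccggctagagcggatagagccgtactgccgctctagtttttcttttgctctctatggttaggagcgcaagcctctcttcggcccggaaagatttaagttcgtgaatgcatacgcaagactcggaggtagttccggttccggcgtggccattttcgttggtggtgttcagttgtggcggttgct
NDUFS1: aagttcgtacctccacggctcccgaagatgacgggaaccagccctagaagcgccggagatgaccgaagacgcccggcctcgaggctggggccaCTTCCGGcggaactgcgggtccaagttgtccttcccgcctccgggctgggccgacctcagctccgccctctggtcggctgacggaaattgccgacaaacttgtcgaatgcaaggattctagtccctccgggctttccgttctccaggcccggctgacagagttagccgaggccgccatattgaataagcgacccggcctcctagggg
The ATP5ME promoter held 3 NRF1 matches and 1 ETS match, ATP5PO held 2 NRF1 matches and, near the end of the window, a YY1 match, and NDUFS6 held 1 NRF1 match. COX7A2 held none of the 3 motifs, and NDUFS1 held an ETS match alone.

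Levels were compared between genes as CPM per kilobase of exon, averaged over all 21 tumors. ATP5F1B, the catalytic beta subunit of the F1 head, was the highest of the 76 genes at 320 CPM per kilobase, with 339 ± 39.3 in Control, 334 ± 73.8 in Oxy186 and 287 ± 38.6 in Oxy210 (SD, n = 7 each). ATP5F1C, the gamma subunit of the central stalk, stood at 97.4 and ATP5F1A, the alpha subunit that alternates with beta in the same head, at 28.2 CPM per kilobase. The lowest of the 15 ATP synthase genes was ATP5MG, a membrane subunit, at 3.03 CPM per kilobase. The 3 genes that encode the same mature c-ring protein stood at 67.8 (ATP5MC2), 35.5 (ATP5MC1) and 25.4 (ATP5MC3) CPM per kilobase, and the Control values of ATP5MC1 (40.5 ± 14.2) and ATP5MC3 (28.1 ± 6.07) overlapped within 1 SD.

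In complex I the levels spanned 331-fold, from NDUFS5, an accessory subunit, at 243 CPM per kilobase to NDUFA13, an accessory subunit also known as GRIM-19, at 0.734. NDUFA13 had only 12 to 65 counts per tumor, and 20.97% of its exon bases are shared with another gene on the same strand. The lower end of this span is therefore uncertain. NDUFV1, which binds FMN and NADH, stood at 20.7 and NDUFS1, the large iron-sulfur subunit of the NADH module, at 5.73 CPM per kilobase. Complex II, the only complex without a mitochondrially encoded subunit, ran from the membrane anchor SDHC at 30.0 through SDHB (19.1, the iron-sulfur subunit) and SDHD (12.9, the second anchor) to SDHA, the FAD-binding catalytic subunit, at 1.42. The complex III genes spanned only 8.61-fold, from UQCRQ at 80.5 to UQCR11 at 9.35, both small subunits, with UQCRFS1, the Rieske iron-sulfur protein, at 63.6 and CYC1, cytochrome c1, at 65.3 CPM per kilobase.

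Complex IV had the highest median level of the 5 complexes, 74.2 CPM per kilobase, and was led by COX6B1 at 166. COX4I1, a subunit needed early in assembly, stood at 73.6. NDUFA4, which was first assigned to complex I and is a subunit of complex IV, stood at 54.6, while its hypoxia-inducible paralog NDUFA4L2 was the lowest of all 76 genes at 0.619 CPM per kilobase, with 4 to 83 counts per tumor. The exon length was the union of all annotated isoforms, which lowers the level of genes with long or shared isoforms: 21.7% of the SDHA exon bases and 32.5% of those of NDUFA7 were shared with another gene on the same strand. With the length of the longest transcript instead, SDHA stood at 4.13 and ATP5MG at 8.03 CPM per kilobase, and 9 of the 10 highest and lowest genes of the complexes were the same. The counts were of uniquely mapped reads, so genes with near-identical copies elsewhere in the genome are uncertain.

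**Figure D1:**
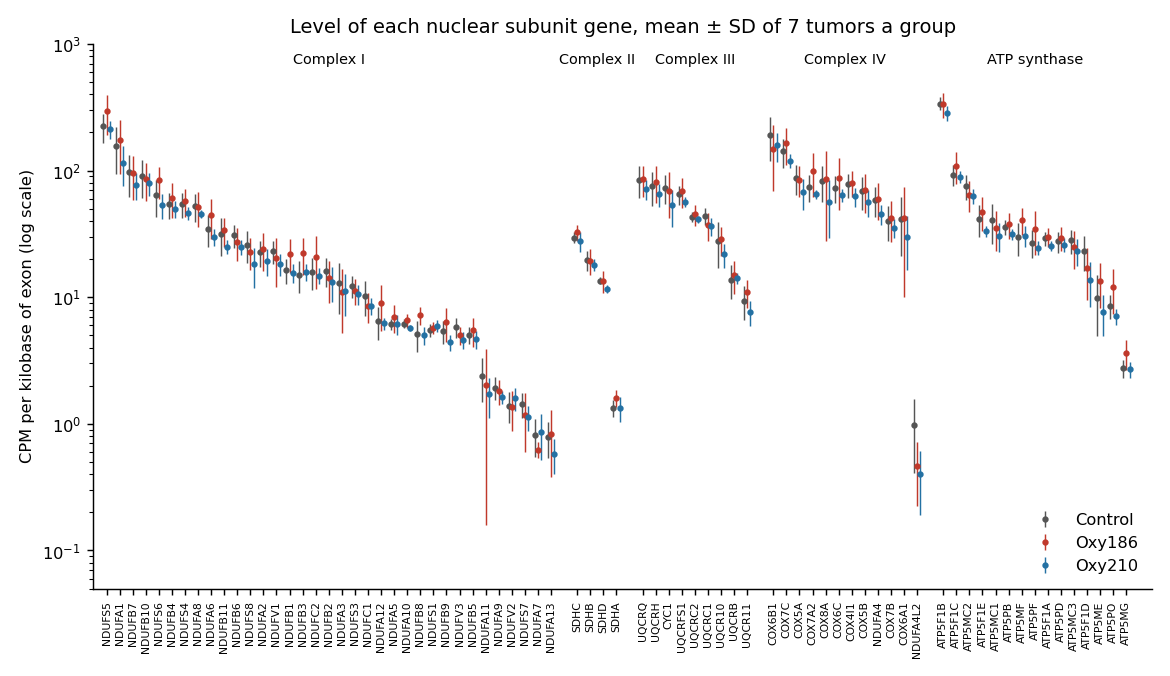
CPM per kilobase of exon (log axis) of 75 of the 76 genes, ordered within its complex, with points for the mean and bars for the SD of 7 tumors a group (Control grey, Oxy186 red, Oxy210 blue). ATP5F1B at 320 and NDUFS5 at 243 lead, NDUFA4L2 at 0.619 is lowest, and the differences between groups are small beside those between genes.

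The tumors differed from each other across many of the 76 genes at once. Each gene was set against its mean log2 CPM over the 21 tumors, and the median over the 76 genes was taken in each tumor. This median ran from −0.27 to 0.55 in Control (middle tumor −0.03), from −0.37 to 0.51 in Oxy186 (0.18) and from −0.35 to 0.13 in Oxy210 (−0.23). Control r4 and Oxy186 r3 were the highest tumors, Oxy186 r1 was the lowest, and the 3 groups overlapped.

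In Control r4, 73 of the 76 genes lay above their mean, and 22 were at their highest in the series there. Another 39 genes had their highest value in Oxy186 r3, so these 2 tumors together held the maximum of most of the genes. In Oxy210, 5 tumors (r1 and r4 to r7) had 6 to 19 genes above the mean, while r2 and r3 had 59 and 49. The median SD within groups on the log2 scale was 0.36 for the 76 genes, against 0.37 for all genes that passed the filter and 0.29 for those with a level in the same range, and by complex it ran from 0.22 in complex II to 0.39 in complex IV.

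The 13 protein genes of mitochondrial DNA, which encode further subunits of every complex except complex II, did not follow the nuclear genes in every tumor. The same median taken over these 13 genes was −0.82, −0.46, −0.27 and −0.79 in Oxy186 r1 to r4, and −0.03 to 0.23 in Oxy186 r5 to r7. It was −0.06 to 0.47 in Control and −0.29 to 0.37 in Oxy210. The 4 tumors Oxy186 r1 to r4 held the 3 lowest values, and r3 came next after Oxy210 r1, whereas their nuclear medians lay on both sides of 0, at −0.37, 0.22, 0.51 and −0.15. These 13 genes took 6.98 to 9.13% of counts in Control, 5.39 to 8.17% in Oxy186 and 6.81 to 9.99% in Oxy210.

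**Figure D2:**
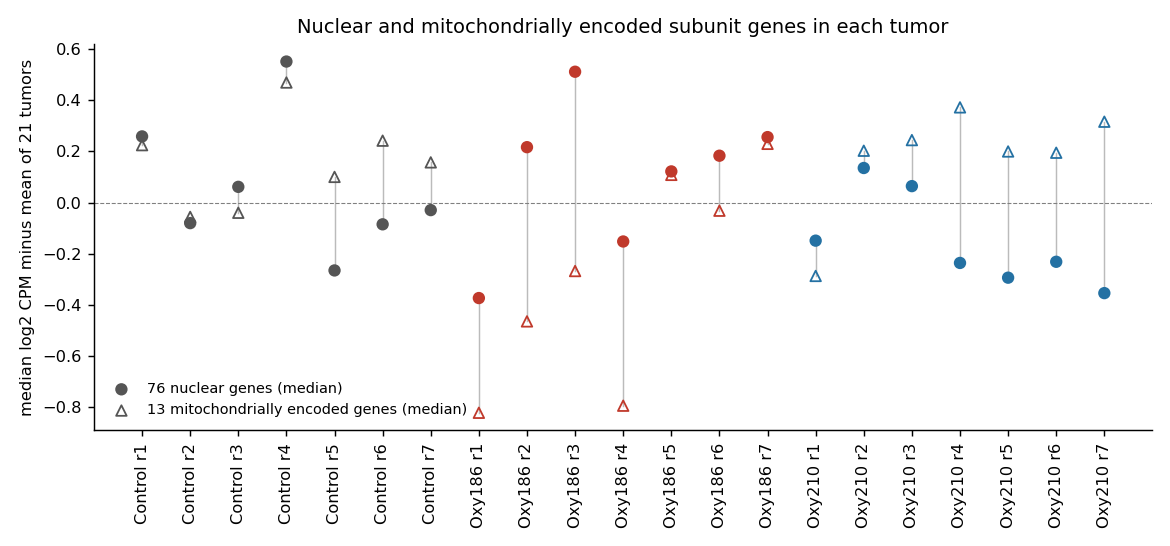
Median log2 CPM relative to the mean of 21 tumors, for the 76 nuclear genes (filled circles) and the 13 mitochondrially encoded genes (open triangles) in each tumor, colored by group and joined by a line. Control r4 (0.55) and Oxy186 r3 (0.51) are highest for the nuclear genes. In every Oxy186 tumor the triangle lies below the circle, with the widest gaps in r1 to r4. The triangle also lies below the circle in Control r1, r3 and r4 and in Oxy210 r1.

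The question of whether Oxy210 altered these genes was addressed by comparing the 7 Oxy210-treated with the 7 Control tumors. Most of the 76 genes were slightly lower with Oxy210, and none passed the test: with edgeR's quasi-likelihood test the smallest adjusted p among them was 0.247 and 0% of the 16396 genes tested were called. The log2 fold change was below 0 for 68 of 76 genes (89.5%), against 48.7% of all genes, with a median of −0.22 against 0.01. At an unadjusted p under 0.05, 14 genes were lower (18.4%, background 8.12%) and 0 were higher (background 5.72%). The 14 were spread over the complexes: 5 of 36 in complex I, 1 of 4 in complex II, 2 of 9 in complex III, 3 of 12 in complex IV and 3 of 15 in ATP synthase. Median log2 fold changes were −0.20, −0.09, −0.22, −0.28 and −0.22 in that order, and all 12 complex IV genes lay below 0. Markers of cell types were also lower in part: 5 of the 7 epithelial genes were below 0 (median −0.14), and of the stromal and immune genes, DCN of fibroblasts was at −1.27 ± 0.32 and LYZ of myeloid cells at −0.90 ± 0.29, with adjusted p of 0.212 and 0.271, while COL1A1 was at 0.13 ± 0.20. Summed over their lists, epithelial genes ranged from 15490 to 20829 CPM in Control and from 14859 to 22637 with Oxy210, fibroblast genes from 33.8 to 74.3 and from 25.6 to 66.3, and immune genes from 4.69 to 23.2 and from 3.60 to 11.7. The injected cells were human and only reads aligned to the human genome were counted. These values therefore do not measure fibroblasts or immune cells of the mouse host. The part of these genes in the result was not tested.

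The largest difference was in NDUFA4L2, the hypoxia-inducible paralog. Its log2 CPM was −0.09, 1.61 and 2.42 in the lowest, middle and highest Control tumor and −0.53, 0.10 and 1.15 with Oxy210. The 5 Control tumors r1 to r5 lay above every Oxy210-treated tumor and r6 and r7 lay among them, so the groups overlapped. The log2 fold change was −1.26 ± 0.41 (SE), with an adjusted p of 0.270. Among the 17 genes of a hypoxia list, 16 were below 0 (background 48.7%), and the median was −0.28. At an unadjusted p under 0.05, 5 of them were lower (background 8.12%). With Oxy186, described later, 16 of the 17 were below 0 as well (background 51.1%), with a median of −0.31. There, 0 were lower at that threshold (background 2.36%). No gene of the list passed the adjusted threshold in either comparison.

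ATP5F1D, the delta subunit of the central stalk, ranged from 5.16 to 6.22 log2 CPM in Control (middle 5.51) and from 4.03 to 5.69 with Oxy210 (4.81). The 4 lowest tumors were all treated with Oxy210, and the remaining 3 overlapped with Control. Its log2 fold change was −0.75 ± 0.22 (SE) with an adjusted p of 0.247.

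The third of the lowest genes, COX8A, a small subunit of complex IV, ranged from 4.78 to 5.96 in Control (5.28) and from 3.82 to 5.52 with Oxy210 (4.26), again with overlap, at −0.52 ± 0.26 (SE) and an adjusted p of 0.372. Its reads are uncertain, as 35.4% of its exon bases are shared with another gene on the same strand. NDUFA4 itself ranged from 7.18 to 8.29 in Control (7.59) and from 6.90 to 7.67 with Oxy210 (7.20), at −0.35 ± 0.15 (SE) and an adjusted p of 0.320. The 2 highest treated tumors, Oxy210 r2 and r3, lay among the Control tumors, and the other 5 lay below every Control tumor except r2.

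Among catalytic subunits, ATP5F1B was at −0.22 ± 0.10, ATP5F1A at −0.17 ± 0.10, NDUFV1 at −0.32 ± 0.13 and CYC1 at −0.44 ± 0.18 (log2 fold change ± SE), with adjusted p of 0.349, 0.423, 0.319 and 0.320. UQCRFS1 was at −0.17 ± 0.11 and COX4I1 at −0.30 ± 0.13, with adjusted p of 0.464 and 0.331.

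In complex II, SDHA was at 0.01 ± 0.14, SDHB at −0.10 ± 0.11, SDHC at −0.08 ± 0.11 and SDHD at −0.20 ± 0.09. SDHD ranged from 5.13 to 5.39 log2 CPM in Control and from 4.92 to 5.16 with Oxy210. Only Oxy210 r6 reached the Control range, and the adjusted p was 0.320.

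The highest values of the comparison belonged to NDUFV2, an iron-sulfur subunit of the NADH module, at 0.21 ± 0.20, and to NDUFS1 at 0.14 ± 0.11 and NDUFB3, a membrane-arm accessory subunit, at 0.08 ± 0.16. NDUFV2 had only 24 to 83 counts per tumor, and 28.4% of its exon bases are shared with another gene on the same strand. The 3 c-ring genes were at −0.39 (ATP5MC1), −0.24 (ATP5MC2) and −0.26 (ATP5MC3).

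The size of the Oxy210 difference rested on few libraries. Without Control r4 the count at an unadjusted p under 0.05 was 4 and the count below 0 was 59 with a median of −0.12. The count was 5 without Oxy210 r7, 7 without Control r1, Oxy210 r4 or Oxy210 r6, 9 without Oxy210 r1 or r5, 24 without Control r5 and 26 without Oxy210 r2, and the number of genes below 0 was 64 to 71 in every fit with 1 tumor left out other than that without Control r4. Scaling by library size alone moved the median of all genes to 0.06 and that of the 76 genes to −0.15, with 60 of 76 below 0 and 6 at an unadjusted p under 0.05.

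Transcript length moved with this comparison. Among all tested protein-coding genes whose longest transcript did not exceed 1585.5 nucleotides, the median of the 76 genes, 79.4% of 1161 were below 0 with a median of −0.20 and 20.5% were lower at an unadjusted p under 0.05. The 38 of the 76 genes in that range had a median of −0.20 too, and 3 (7.89%) were lower at that threshold. Of the 38 longer ones, 34 were below 0 with a median of −0.23 and 11 (28.9%) were lower at that threshold, against 47.7%, 0.01 and 7.75% of the 12141 longer protein-coding genes, whose median length was 4183 nucleotides against 2773 in the 38. The part of length in these differences was not tested further.

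Comparison of the 7 Oxy186-treated with the 7 Control tumors asked the same question for Oxy186. The nuclear genes lay on both sides of 0, and none passed the test (0% of 16291 genes called with edgeR, smallest adjusted p among the 76 genes 0.862). Above 0 were 47 genes, the median was 0.05 against −0.01 over all genes, 7 were higher at an unadjusted p under 0.05 (9.21%, background 1.44%) and 1 was lower (1.32%, background 2.36%). The 7 were NDUFA12, NDUFB1, NDUFB3 and NDUFB8, all accessory subunits of complex I, and ATP5MF, ATP5MG and ATP5PO of ATP synthase.

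NDUFB3 ranged from 4.04 to 5.43 log2 CPM in Control (middle 4.75) and from 4.90 to 6.11 with Oxy186 (5.26). Oxy186 r2 and r3 exceeded every Control tumor, and the log2 fold change was 0.54 ± 0.20 (SE, adjusted p = 0.862). ATP5PO, also called OSCP, the subunit that joins the peripheral stalk to the F1 head, ranged from 4.26 to 5.22 in Control (4.69) and from 4.70 to 6.00 with Oxy186 (4.93), with the same 2 tumors above Control, at 0.48 ± 0.21 (SE, adjusted p = 0.862). NDUFB8, a membrane-arm accessory subunit with 33.8% of its exon bases shared with another gene on the same strand, ranged from 2.64 to 3.74 in Control and from 3.47 to 4.17 with Oxy186. It was above every Control tumor in 5 of 7 Oxy186-treated tumors, at 0.47 ± 0.18 (SE, adjusted p = 0.862).

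NDUFA4L2 was the lowest gene here as well. Its log2 CPM was −1.27, 0.61 and 1.29 in the lowest, middle and highest Oxy186-treated tumor, against −0.09, 1.61 and 2.42 in Control. Every Oxy186-treated tumor lay below the 5 Control tumors r1 to r5, though r3 only narrowly (1.30 against 1.29), and r6 and r7 lay among them, with a log2 fold change of −1.08 ± 0.44 (SE) and an adjusted p of 0.862. The 2 comparisons share their Control tumors, so they are not independent. NDUFA4 was at 0.02 ± 0.19, ATP5F1D at −0.46 ± 0.25 and NDUFA7, an accessory subunit with only 8 to 31 counts per tumor, at −0.41 ± 0.25. The 4 complex II genes were at 0.24 (SDHA), −0.03 (SDHB), 0.12 (SDHC) and −0.03 (SDHD), each within 2 SE of 0.

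Single libraries moved the Oxy186 counts. The number of genes higher at an unadjusted p under 0.05 was 2 without Oxy186 r3 or Control r5, 3 without Oxy186 r2, 4 without Control r2 or r6, and 12 without Control r4 or Oxy186 r1. Without Oxy186 r3 the genes above 0 numbered 34 and the median became −0.02. The 4 genes of complex I among the 7 were accessory subunits, and 0 of the 7 core subunits of complex I were higher or lower at that threshold, with a median of −0.15 for the core and 0.07 for the 29 accessory subunits.

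A direct comparison of both oxysterols at the same dose and schedule gave the widest separation. This was the only pair of compounds compared. The log2 difference was above 0, higher with Oxy186, for 70 of 76 genes, with a median of 0.27 against −0.01 over all genes, of which 51.5% lay below 0. None passed the test (0% of 16361 genes called with edgeR, smallest adjusted p among the 76 genes 0.853), and at an unadjusted p under 0.05, 23 genes were higher (30.3%, background 3.14%) and 0 lower (background 0.917%). All 9 complex III and all 15 ATP synthase genes lay above 0, as did 11 of 12 in complex IV, 4 of 4 in complex II and 31 of 36 in complex I, and the medians were 0.26, 0.28, 0.38, 0.22 and 0.22.

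ATP5PO had the smallest p of the 76 genes. It ranged from 4.70 to 6.00 log2 CPM with Oxy186 (middle 4.93) and from 4.22 to 4.84 with Oxy210 (4.49). Only Oxy186 r6 lay below the highest Oxy210-treated tumor, r2. The difference was 0.76 ± 0.20 (SE), with a 95% interval from 0.33 to 1.18 and an adjusted p of 0.853.

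NDUFS6, an accessory iron-sulfur region subunit of complex I that carries zinc, ranged from 5.37 to 6.74 with Oxy186 (6.15) and from 5.22 to 5.93 with Oxy210 (5.38). Apart from Oxy186 r1, all Oxy186-treated tumors lay above all Oxy210-treated tumors. The difference was 0.65 ± 0.18 (SE), with an interval from 0.26 to 1.03 and an adjusted p of 0.870.

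COX7A2, a small subunit of complex IV singled out after its values were seen, ranged from 7.03 to 8.39 with Oxy186 (7.35) and from 6.80 to 7.18 with Oxy210 (6.95). Only Oxy186 r6 was below the highest Oxy210-treated tumor, r2, and the difference was 0.60 ± 0.18 (SE, interval 0.23 to 0.98, adjusted p = 0.965). ATP5ME, a membrane subunit of ATP synthase, gave the largest difference of all, 0.81 ± 0.28 (SE, interval 0.23 to 1.39, adjusted p = 1.00), over a range from 2.46 to 4.24 with Oxy186 and from 2.04 to 3.48 with Oxy210. Of its exon bases, 61.3% lie opposite another gene, and no source used here says whether featureCounts used strand, so its reads cannot be assigned with certainty.

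**Figure D3:**
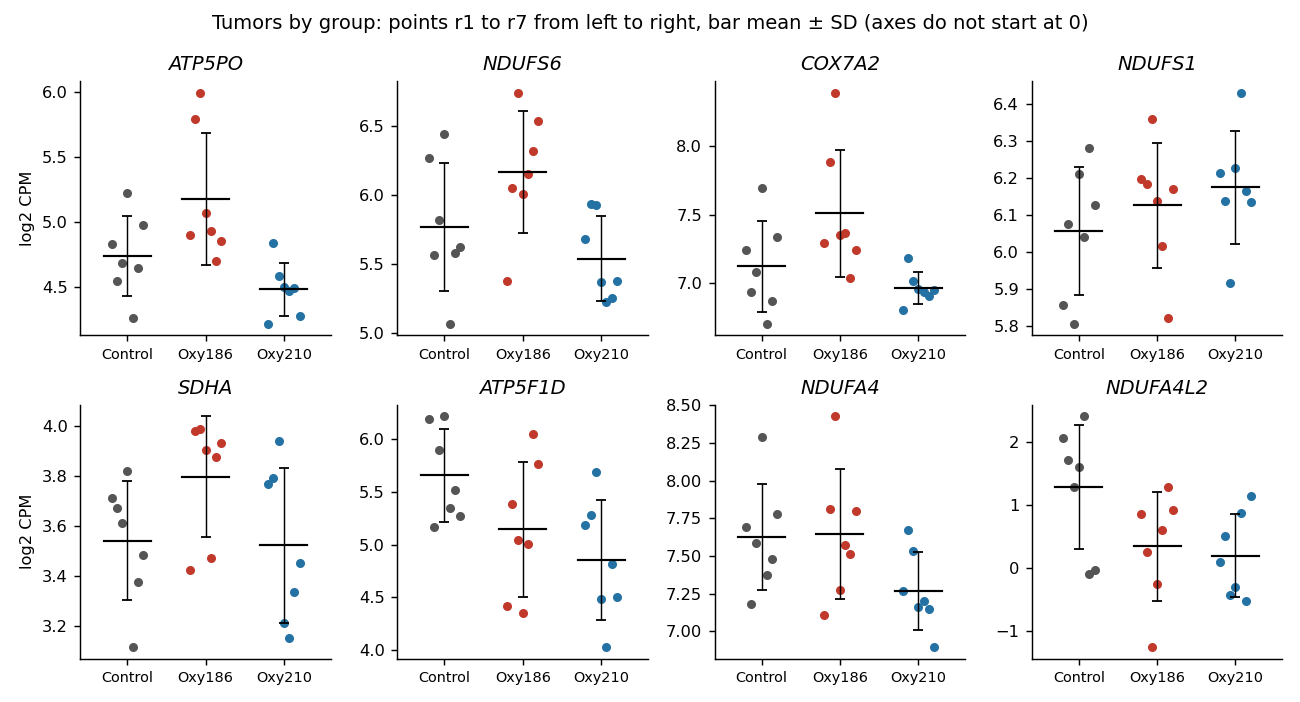
Log2 CPM of 8 genes in each tumor (points, r1 to r7 from left to right within a group) with the group mean and SD (n = 7). ATP5PO, NDUFS6 and COX7A2 are higher in most Oxy186-treated than Oxy210-treated tumors, NDUFS1 and NDUFA4 overlap widely, and NDUFA4L2 is highest in Control r1 to r5; axes do not start at 0 and differ between panels.

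For several subunits both groups gave close values. NDUFS1 was at −0.06 ± 0.11, with an interval from −0.29 to 0.17, ATP5MC2 at 0.03 ± 0.16 with an interval from −0.32 to 0.37, and SDHB at 0.10 ± 0.13 with an interval from −0.18 to 0.38. These intervals exclude a 2-fold change in either direction but leave room for smaller ones. NDUFA7, NDUFV2 and COX6B1 were the 3 lowest, at −0.46 ± 0.27, −0.25 ± 0.24 and −0.09 ± 0.30, and all their intervals include 0. ATP5F1B at 0.21 ± 0.14 and ATP5F1A at 0.22 ± 0.12 lay near the middle of the ATP synthase genes.

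Within complex I, 10 of the 29 accessory subunits (34.5%) were higher with Oxy186 at an unadjusted p under 0.05 and 0 of the 7 core subunits were, with medians of 0.30 and 0.09. The difference between core and accessory subunits was not tested. The longest transcripts had a median of 1361 nucleotides for the accessory and 3333 for the core subunits. Of the 38 genes up to the median length, 15 (39.5%) were higher at that threshold with a median of 0.32, against 14.1% and 0.17 for all 1151 tested protein-coding genes of that length. Of the 38 longer genes, 8 (21.1%) were higher with a median of 0.21, against 2.05% and −0.01 for the 12124 longer protein-coding genes. The median of all short genes lay above 0. In both length classes the median of the 76 genes lay above that of all genes. Length was not matched within the classes. Median lengths in the 76 genes and in all genes were 929 against 1210 nucleotides (short) and 2773 against 4190 (long). All 7 epithelial genes also lay above 0 here (median 0.16), and their summed CPM was 15533 to 24803 with Oxy186 and 14859 to 22637 with Oxy210. Only reads aligned to the human genome were counted, so these sums do not measure the share of tumor cells among mouse cells. The part of length was not tested.

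Leaving out any 1 tumor gave 17 to 29 genes higher at an unadjusted p under 0.05 and 64 to 73 above 0. Without the 4 tumors Oxy186 r1 to r4, 37 genes were higher at that threshold and the median was 0.32, and without Oxy186 r3 the values were 17 and 0.22. The direction therefore did not rest on any 1 tumor, Oxy186 r3 included. The fit without Oxy186 r1 to r4 cannot show whether it rested on these 4 tumors together. That fit keeps only Oxy186 r5 to r7, whose medians relative to all tumors were already above 0 (0.12, 0.18 and 0.26). It drops the low tumors r1 (−0.37) and r4 (−0.15) along with r2 (0.22) and r3 (0.51). An offset for the GC content of each gene gave 28 higher, with a smallest adjusted p of 0.310. Over all 16361 genes, those at an unadjusted p under 0.05 in either direction went from 664 to 1329 with the offset.

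**Figure D4:**
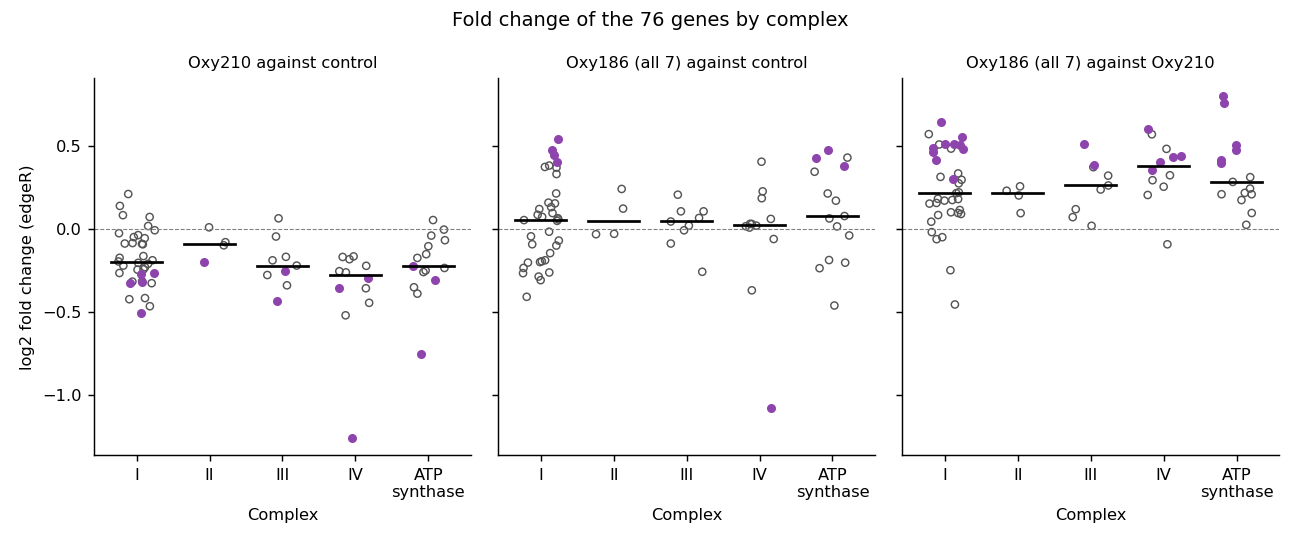
Log2 fold change of the 76 genes by complex in the 3 comparisons of labelled groups; filled points have an unadjusted p under 0.05, open points do not, and the bar is the median of the complex. The medians lie from −0.28 to −0.09 for Oxy210 against Control, from 0.03 to 0.08 for Oxy186 against Control and from 0.22 to 0.38 for Oxy186 against Oxy210, and no gene passed the adjusted threshold.

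The mitochondrially encoded genes lay on the other side of 0. Between Oxy186 and Oxy210 all 13 were below 0, 6 of them at an unadjusted p under 0.05 (background 0.917%), with a median of −0.45. MT-ATP8, a subunit of ATP synthase, was the lowest at −0.85 ± 0.21 (SE, adjusted p = 0.853). Against Control all 13 were below 0 with Oxy186 (median −0.42, 8 at an unadjusted p under 0.05), led by MT-ND1, a membrane core subunit of complex I, at −0.69 ± 0.23, and with Oxy210 only 4 were below 0 and the median was 0.06. The background at that threshold against Control was 2.36% for Oxy186. The low values lay in Oxy186 r1 to r4, whose median relative to all tumors averaged −0.59, against 0.10 in Oxy186 r5 to r7, 0.16 in Control and 0.18 in Oxy210. None of these passed the adjusted threshold.

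Genes around the pathway were set beside the 76 genes, without a test between lists. A further list held subunits and other pathway genes that the symbols did not take in. CYCS among them encodes cytochrome c, not a subunit of a complex. Of 8 tested, 7 were below 0 with Oxy210 against Control (median −0.22). With Oxy186, 5 of the 7 tested were above 0 against Control (median 0.17) and all 7 against Oxy210 (median 0.23). Assembly factors, which build the complexes without being part of them, had medians between Oxy186 and Oxy210 of 0.15 for 17 genes of complex I, 0.11 for 4 of complex II, 0.11 for 6 of complex III, 0.10 for 23 of complex IV and 0.07 for 4 of ATP synthase. With Oxy210 against Control those medians were −0.04, −0.28, 0.02, −0.05 and −0.05, and with Oxy186 against Control 0.09, −0.10, 0.08, 0.03 and −0.01.

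The 14 regulators of mitochondrial biogenesis had medians of 0.00 (Oxy210 against Control), −0.03 (Oxy186 against Control) and 0.01 (Oxy186 against Oxy210), and the 13 genes of the TCA cycle, which supplies NADH and succinate, of −0.06, 0.03 and 0.07. Between Oxy186 and Oxy210, NRF1 was at 0.04 ± 0.10 and YY1 at 0.00 ± 0.09, and PPARGC1A, the coactivator PGC-1alpha, was the farthest of the 14 from 0 at −1.07 ± 0.60, with an adjusted p of 1.00 for each. PPARGC1A was at 0.69 ± 0.50 with Oxy210 and at −0.41 ± 0.39 with Oxy186 against Control. In none of these lists did a gene pass the adjusted threshold in the 3 comparisons of labelled groups.

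The study itself singled out Oxy186 r1 to r4 from a principal component plot of these data, so the comparison of these 4 tumors with the 7 Control tumors describes chosen samples and not the treatment. Here 10 of the 76 genes fell (13.2%, background 15%) and 3 rose (3.95%, background 4.73%) by edgeR's test at the adjusted threshold of 0.05, close to the shares of all 16852 genes tested. The genes that fell were NDUFV1, NDUFS7, NDUFA3, NDUFA11 and NDUFB2 of complex I, COX6A1, COX6B1 and COX8A of complex IV and ATP5F1D and ATP5MC3 of ATP synthase. The 3 that rose were NDUFC2, COX7A2 and ATP5PO, and the median of the 76 genes was 0.01, equal to that of all genes at this precision.

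NDUFA11, an accessory subunit of the membrane arm, had log2 CPM of 0.87, 2.38, 1.17 and 0.89 in Oxy186 r1 to r4 and at least 2.76 in every Control tumor. The groups did not overlap, while Oxy186 r5 to r7 lay between 4.15 and 4.39, beside the highest Control tumor. The log2 fold change was −2.14 ± 0.37 (SE) with an adjusted p of 0.00165. NDUFV1 also did not overlap, with 5.93 to 6.55 in the 4 tumors against 6.58 to 7.33, at −0.67 ± 0.17 (SE, adjusted p = 0.0122).

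COX6A1, a small subunit of complex IV, had 3.95 to 5.08 in the 4 tumors and 6.58 to 6.78 in Oxy186 r5 to r7. Control was split, with 6.09 to 6.38 in r1 to r4 and 4.58 to 4.98 in r5 to r7. The latter lay within the range of the 4 tumors. Oxy210 ranged from 4.56 to 6.15, with r4 to r7 at most 5.03. COX6A1 fell by 1.30 on the log2 scale (SE 0.37, adjusted p = 0.0237), and COX6B1 fell by 1.12 (SE 0.29, adjusted p = 0.0157). Among those that rose, NDUFC2, a membrane-arm accessory subunit of complex I, had 5.36 to 6.37 in the 4 tumors against 4.64 to 5.66 in Control and 4.65 to 5.01 in r5 to r7, at 0.76 ± 0.21 (SE, adjusted p = 0.0228). NDUFA4L2, at −1.55, did not pass the threshold.

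GC content of the genes moved with this comparison. The slope of expression on GC content was −0.51 to −0.18 log2 units per 10 percentage points in the 4 tumors, below every Control tumor, against −0.15 to 0.40 in Control, 0.08 to 0.49 in Oxy186 r5 to r7 and −0.33 to 0.26 in Oxy210. The 76 genes have exon GC contents from 36.1 to 65.0% (median 47.8%). Those up to the median had a median log2 fold change of 0.17 and those above it of −0.29, and with GC offsets these became −0.06 and 0.07. With the offsets 4 of the 76 genes fell (5.26%, background 2.26%) and 0 rose (background 1.79%).

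The 4 that fell with offsets were NDUFA11 (−1.20, adjusted p = 0.0201), COX6A1 (−1.46, adjusted p = 0.0433), NDUFB2 (−0.77, adjusted p = 0.0498) and ATP5MC3 (−0.82, adjusted p = 0.0248). ATP5F1D, with the highest GC content of the 76 genes, turned from −0.86 to 0.37. The counts also rested on single tumors. Without Oxy186 r1, r2 or r3 the number that rose was 11, 1 or 0, and without Control r4 it was 7. The number that fell was 1 without Oxy186 r4, 5 without Oxy186 r1 or Control r1 and 6 without Control r3 or Control r4. Of all genes tested, 15% fell without and 2.26% with GC offsets. Of the 13 mitochondrially encoded genes, 8 fell in the 4 tumors without and 8 with the offsets. Among the 14 regulators 2 fell without the offsets, near the share of all genes, and 1 fell with them. ESRRA, the estrogen-related receptor alpha and the lowest of the 14 without offsets, was at −1.88 ± 0.26 (adjusted p = 0.000647) without and at −0.74 (adjusted p = 0.0115) with them.

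**Figure D5:**
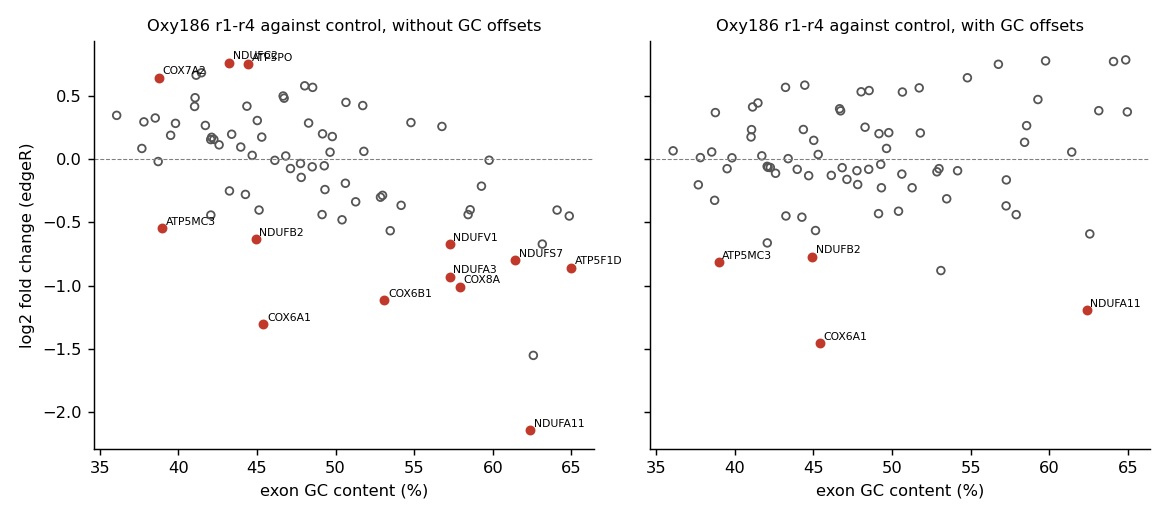
Log2 fold change of the 76 genes in Oxy186 r1 to r4 against Control by exon GC content (%), without (left) and with (right) GC offsets; filled points passed an adjusted p at or under 0.05. On the left the points fall with GC content, with 10 lower and 3 higher called genes, and on the right 4 lower genes remain called.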

How the data were processed

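The authors trimmed reads with Trimmomatic 0.39, aligned them with STAR 2.7.6a to a combined human (GRCh38.p13) and mouse (GRCm39) genome and deposited raw counts per human gene from featureCounts (Subread 2.0.1). They also deposited log2 CPM after filterByExpr and TMM for Control and Oxy186 r1-r4. Recomputed values (prior count 2) differed from these by at most 4.97e-14 over 16852 genes. The strand setting is not given in the sources used here.

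Counts were tested in R 4.3.3 with edgeR 4.0.16 (filterByExpr, TMM, quasi-likelihood test, group as the only term), with Benjamini-Hochberg adjustment over all genes tested and calls at an adjusted p at or under 0.05. Log2 CPM of single tumors were normalised over all 21 libraries. Alternatives were DESeq2 1.42.0, voom of limma 3.58.1, RLE or library-size scaling, other filters, GC offsets (a spline with 4 degrees of freedom), a replicate block and leaving out tumors. Replicate numbers were taken from the labels. Lengths, GC content and overlaps came from GENCODE release 44, and 99.8% of genes that passed the filter had a GC value. The steps were tested on simulated data. Named genes were the highest and lowest per kilobase of each complex, the 3 largest and smallest fold changes of each comparison, a list of catalytic subunits and paralogs, and genes with an outlying tumor; COX7A2 and other genes named beyond these were chosen after their values were seen. The genes and lists were chosen with earlier results of these data known, and the split by transcript length was added after the data were seen. Values of 1 of the 76 genes are not reported here, although it was kept in the counts and medians.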

Additional observations from a re-analysis of the deposited data

Results flagged for a closer look

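In each group of 7 tumors, a gene was set apart where the gap between its extreme tumor and the next exceeded Dixon's 95% limit. This held for 4 of 225 combinations of 75 genes and 3 groups, against about 11.25 that chance gives. NDUFB4, an accessory subunit of complex I, had a log2 CPM of 7.27 in Control r4, with the others between 6.28 and 6.63, and 7.59 in Oxy186 r3, with the others between 6.45 and 6.83. COX6C and COX7B, small subunits of complex IV, had log2 CPM of 8.85 in Oxy186 r3 (others 7.22 to 7.88) and 7.69 in Control r4 (others 6.58 to 6.95). All 4 lay in the 2 tumors with the highest median over the 76 genes.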

How the results depend on the processing

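In the 3 comparisons of labelled groups no gene of the 76 passed an adjusted p at or under 0.05 under any alternative run, DESeq2 and voom included, while the medians moved: with 1 tumor left out from −0.28 to −0.12 for Oxy210 against Control, from −0.02 to 0.12 for Oxy186 against Control, a change of sign, and from 0.22 to 0.33 for Oxy186 against Oxy210. Counts at an unadjusted p under 0.05, which were added after seeing the data, moved more. For Oxy210 against Control the 14 lower genes became 6 with library size alone, 5 with all 21 libraries in one fit, 4 without Control r4 and Oxy186 r3, and 4 to 26 with 1 tumor left out. For Oxy186 against Control the 7 higher genes became 2 with the replicate block and 2 to 12 with 1 tumor left out. For Oxy186 against Oxy210 the 23 higher genes became 37 without Oxy186 r1 to r4, a fit that keeps only Oxy186 r5 to r7, whose medians were all above 0.

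For Oxy186 r1 to r4 against Control, the 3 genes that rose became 6 with DESeq2, 7 with library size alone, 7 with no filter, 5 with at least 10 counts in every library, 9 with all 21 libraries in one fit, and 0 with GC offsets, with the replicate block, with the replicate block and GC offsets together, with a fold change over 2 as well, and without Control r4 and Oxy186 r3; leaving out 1 tumor gave 0 to 11. The 10 that fell became 4 with GC offsets, 1 with the replicate block and GC offsets together, 4 with a fold change over 2 as well, 6 without Control r4 and Oxy186 r3, and 1 to 11 with 1 tumor left out. The median over the 76 genes ran from −0.22 to 0.17 with 1 tumor left out, and ATP5F1D reversed to 0.37 with GC offsets. The cause was not tested.

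Tumors with the same replicate number did not deviate together throughout (correlations over all genes from −0.40 to 0.33). Between Oxy186 and Control the correlations were negative, −0.40 to −0.16, for all numbers except r5 (0.05). These correlations cannot show whether the numbers also mark a shared order or batch, which was not tested. Depth limits the genes of few counts, such as NDUFA4L2 and NDUFA7.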
